A study of Mus musculus with 6 samples.

Results

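The nuclear-encoded subunits of the respiratory chain and of ATP synthase were followed in cerebellar RNA of Tmem106b-/- and wild-type mice. They were taken from the table of read counts by name. A member is a protein-coding gene whose symbol is that of an Nduf subunit (letters a, b, c, s or v and a digit), Sdha to Sdhd, a Uqcr gene, Cyc1, a Cox4 to Cox8 gene with a letter after the digit, or an Atp5 gene, with at least 10 counts in 3 or more libraries. This gave 82 of the 43346 genes of the table, with 37 in complex I, 4 in complex II, 9 in complex III, 15 in complex IV and 17 in complex V. The rule used no difference between genotypes. A further 3 genes carried such names and missed the count minimum. Cox7b2 had 0, 4 and 3 counts in the KO libraries and 3, 7 and 5 in the WT libraries. Cox6a2 had 6, 4 and 3 counts in KO and 2, 2 and 0 in WT, and Cox8c had 1 count in all, in a KO library. All 82 members also passed the filter for the test of genotype. The names do not match the biochemistry everywhere. Ndufa4, counted here with complex I, is now known as a subunit of complex IV, Cox7a2l is an assembly factor of supercomplexes, and Atp5s and Atp5sl are no subunits of ATP synthase. The name rule does not take Ndufab1 and a few other subunits, which are given with the further lists.

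The knockout group (KO) held 3 mice with the genotype Tmem106b-/-, 1 female and 2 males. The wild-type group (WT) held 3 Tmem106b+/+ mice, again 1 female and 2 males. All 6 were 15 months old, each gave 1 library from total RNA of cerebellar tissue, and the RNA integrity number was 10 in each. TMEM106B is a transmembrane protein found in lysosomes. The sources used here give neither the strain of the mice nor how the allele was made. Replicate 1 is the female and replicates 2 and 3 are the males of each genotype, and no pairing of mice is stated in the labels, so p-values measure the spread between these 6 animals.

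The respiratory chain lies in the inner mitochondrial membrane. Complex I takes electrons from NADH and complex II takes them from succinate, ubiquinone carries them to complex III, cytochrome c carries them on to complex IV, and complex IV reduces oxygen to water. Complexes I, III and IV pump protons across the membrane, and complex V, ATP synthase, lets them flow back to make ATP. Most subunits are encoded in the nucleus and imported, and the rest are encoded by mitochondrial DNA. Neurons, and among them the Purkinje cells of the cerebellum with their constant firing, depend on this pathway for ATP. Of the 13 protein-coding genes of mitochondrial DNA, and of all 37 mitochondrial genes in the table, none had a count in any library, so they were not analysed here.

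Library totals ran from 25245778 to 31135185 counts, and the members took 1.24, 1.22 and 1.25% of all counts in the KO libraries, against 1.32, 1.26 and 1.27% in the WT libraries. RNA of the targeted gene was lower in all KO libraries, as the labels imply, but was not absent there. Tmem106b had 69.7, 67.9 and 62.7 CPM (read counts relative to library size, scaled by TMM) in the KO libraries, against 230.5, 267 and 238 CPM in the WT libraries (log2 fold change KO over WT -1.88 ± 0.08 SE, edgeR, Benjamini-Hochberg adjusted p = 0.000137). The granule cell markers of cerebellum were abundant in both groups. Gabra6, a GABA-A receptor subunit of these cells, averaged 851 ± 103 CPM in KO and 787 ± 33.0 CPM in WT (SD, n = 3 each).

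The promoters of the members were read first, since nuclear respiratory factor 1 (NRF1), GABPA, YY1 and the oestrogen-related receptor ESRRA are known to bind promoters of such genes, and SP1 binds GC-rich promoters in general. RefSeq promoters (GRCm38.p6, 250 bases before to 50 bases after each start) were matched for 68 of the 82 members, with 74 promoters in all, beside 32851 promoters in the table. Each of 5 motifs was searched on both strands. The NRF1 motif GCGCANGCG occurred in 28.4% of the member promoters, against 11.7% of the 14668 promoters of genes tested and 6.25% of all promoters. The YY1 motif AAGATGGCG occurred in 12.2% of the member promoters, against 2.51% and 1.40%. The GABPA motif CCGGAAG occurred in 21.6% of them, against 15.0% and 8.86%, and the ESRRA motif CAAGGTCA in 5.41%, against 1.15% and 1.56%. The SP1 motif GGGCGGG went the other way against the genes tested, with 32.4% of the member promoters, 44.1% of the promoters of genes tested and 25.6% of all promoters. Member promoters and promoters of genes tested had the same median of 19 CpG pairs, and their median GC content was 57.5% and 60.3%. No member promoter held overlapping matches of these motifs. Among members with a promoter, 47 held at least 1 of the 5 motifs, SP1 included, and 21 held none. This count was not made for other genes, so it has no background here. By complex, 9 of 34 complex I promoters, 2 of 3 complex II, 2 of 5 complex III, 1 of 12 complex IV and 7 of 20 complex V promoters held the NRF1 motif. The YY1 motif was found in promoters of complexes I and V, among them those of Ndufs7, Ndufs4, Ndufa9 and Atp5j, and in none of the other 3 complexes.

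**Figure D1:**
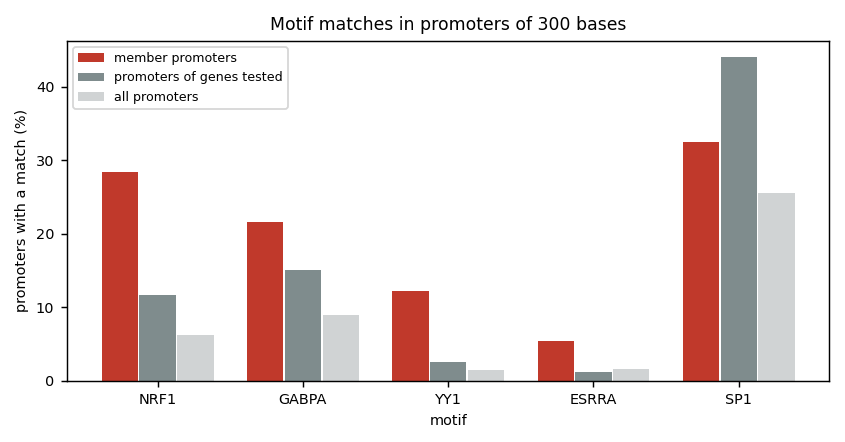
Share of RefSeq promoters (%, vertical axis) that hold each of 5 motifs, for member promoters, promoters of genes tested and all promoters. NRF1, GABPA, YY1 and ESRRA matches are more frequent in the 74 member promoters than in the other sets, and SP1 matches are less frequent in them than in promoters of genes tested.

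Promoters of 4 members described below are printed 5′ to 3′ on the strand of the gene, chosen to show the different layouts. Capitals mark matches to NRF1, GABPA, YY1 or ESRRA on either strand, the first 250 bases lie before the RefSeq start, and SP1 matches are left in lower case. Sdhd (ENSMUSG00000000171, chr9:50603800-50604099, minus strand) holds an NRF1 match from base 172 and a GABPA match from base 205. It also holds an SP1 match from base 248 and an ESRRA match from base 287, the latter after the start. Uqcr11 (ENSMUSG00000020163, chr10:80406772-80407071, minus strand) holds a GABPA match from base 185 and an NRF1 match from base 246. Ndufs7 (ENSMUSG00000020153, chr10:80249199-80249498, plus strand) holds a YY1 match from base 275, after the start. Atp5b (ENSMUSG00000025393, chr10:128083057-128083356, plus strand) holds none of these 4, and an SP1 match from base 205.
Sdhd: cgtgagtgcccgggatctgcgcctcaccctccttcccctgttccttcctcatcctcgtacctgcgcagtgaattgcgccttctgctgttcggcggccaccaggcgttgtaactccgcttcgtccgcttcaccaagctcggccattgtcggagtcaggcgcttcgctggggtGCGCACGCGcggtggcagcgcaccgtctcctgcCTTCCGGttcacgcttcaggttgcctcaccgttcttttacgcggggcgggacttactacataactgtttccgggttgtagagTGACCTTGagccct
Uqcr11: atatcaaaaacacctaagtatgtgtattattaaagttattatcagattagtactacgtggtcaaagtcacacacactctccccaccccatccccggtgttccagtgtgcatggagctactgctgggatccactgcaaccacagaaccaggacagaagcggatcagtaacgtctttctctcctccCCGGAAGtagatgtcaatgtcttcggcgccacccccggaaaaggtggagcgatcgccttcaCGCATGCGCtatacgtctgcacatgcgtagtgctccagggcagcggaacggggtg
Ndufs7: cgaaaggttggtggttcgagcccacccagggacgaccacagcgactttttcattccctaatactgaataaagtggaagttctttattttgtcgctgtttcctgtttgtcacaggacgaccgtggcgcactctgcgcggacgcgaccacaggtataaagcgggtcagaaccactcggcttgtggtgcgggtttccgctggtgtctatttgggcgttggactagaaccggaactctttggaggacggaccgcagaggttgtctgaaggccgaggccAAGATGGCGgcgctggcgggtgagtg
Atp5b: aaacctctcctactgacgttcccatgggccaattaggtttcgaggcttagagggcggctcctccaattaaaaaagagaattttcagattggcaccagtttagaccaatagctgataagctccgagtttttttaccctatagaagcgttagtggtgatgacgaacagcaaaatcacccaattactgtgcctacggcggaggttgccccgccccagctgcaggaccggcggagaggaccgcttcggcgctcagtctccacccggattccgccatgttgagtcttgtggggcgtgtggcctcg
A match is a run of letters and shows no binding. Sdhd and Atp5b both had lower RNA in all KO libraries than in all WT libraries, an order found in 6.35% of all genes tested. They differ in that 3 of the marked motifs are in the Sdhd window and none is in the Atp5b window.

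No subunit of any complex passed the test between genotypes. Across all 16934 genes tested, 23 were higher and 25 were lower in KO (48 genes, 0.283% of those tested, adjusted p under 0.05 in edgeR), and 0 of the 82 members were among them. At an unadjusted p under 0.05, edgeR called 8.96% of all genes and 0 members. DESeq2 and limma-voom each called 0 members, also at an unadjusted p under 0.05, where they called 7.17% and 8.89% of all genes. The lowest p of a member was that of Atp5a1, at 0.0757 before and 0.624 after Benjamini-Hochberg adjustment in edgeR.

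The estimates lay close to 0 and mostly just below it. The median log2 fold change of the 82 members was -0.07, or 95.4% of the WT level, with 0.00 as the median of all genes tested. A total of 64 members had an estimate below 0 and 18 had one above, whereas 8453 of the 16934 genes tested lay below 0. By complex, the median was -0.05 in complex I, -0.09 in complex II, -0.13 in complex III, -0.08 in complex IV and -0.09 in complex V. The estimates ran from -0.27 for Ndufa11 to 0.30 for Ndufa4l2. All 3 KO libraries lay below all 3 WT libraries in 3 members, Sdhd, Atp5a1 and Atp5b, against 6.35% of all genes tested. The opposite order was found in 0 members, against 7.77% of all genes tested. The members share libraries and vary together, so these counts describe these 6 libraries and are not independent.

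The intervals limit how large a difference could have been. The 95% confidence interval included 0 in all 82 members. It lay within 80 to 125% of the WT level in 54 members, and within 50 to 200% in all 82. In the 77 members with a mean of at least 10 CPM, the estimates ran from 82.9 to 106% of the WT level, and the intervals reached from 56.4 to 128%. A difference smaller than the interval of a member would not have been detectable. In bulk tissue, fewer cells that express a subunit and less RNA per cell cannot be told apart.

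**Figure D2:**
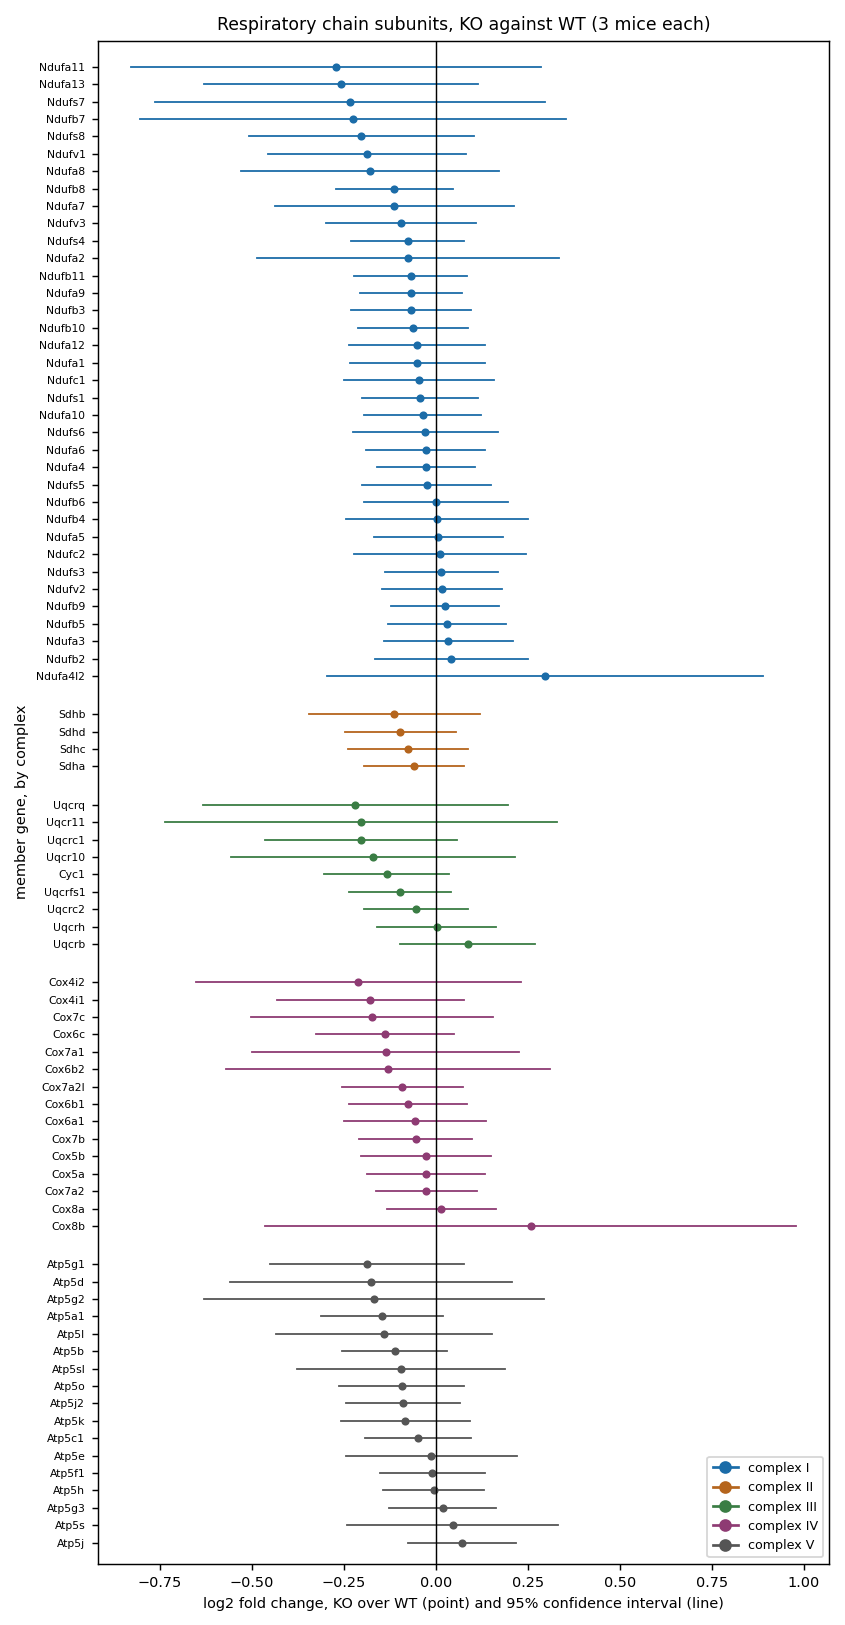
Log2 fold change (KO over WT, 3 mice each) of 81 members with its 95% confidence interval from edgeR, grouped by complex. Every interval crosses 0, most points lie slightly left of 0, and the widest intervals are those of Ndufa11, Ndufb7, Ndufs7, Uqcr11, Ndufa4l2 and Cox8b.

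Complex I oxidises NADH in its peripheral arm. Ndufv1, which binds NADH and flavin, had 148, 179 and 205 CPM in the KO libraries, against 218, 190.1 and 194 CPM in the WT libraries. Its log2 fold change was -0.19 ± 0.12 (SE), and the groups overlapped because KO 3 lay above WT 2 and WT 3. Ndufv2 and Ndufs1, which carry iron-sulfur clusters next to it, had estimates nearer to 0. Ndufv2 had 163, 139.8 and 135 CPM in KO and 149, 134 and 147 CPM in WT, a log2 fold change of 0.02 ± 0.07. Ndufs1 had 267, 234 and 231 CPM in KO and 254, 260.2 and 238 CPM in WT, a log2 fold change of -0.04 ± 0.07. In both genes KO 1 was the highest of the 6 libraries, whereas in Ndufv1 it was the lowest. Ndufs1 overlaps Eef1b2, which had 50.7% of its counts, so without a stated strand setting some of its reads could belong to either gene.

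Among the subunits that pass electrons to ubiquinone, Ndufs7 and Ndufs8 varied widely between the KO mice. Ndufs7, which holds the last iron-sulfur cluster of the chain inside complex I, had 26.0, 36.1 and 51.7 CPM in KO, against 51.1, 39.5 and 40.9 CPM in WT. KO 1 was the lowest and KO 3 the highest of all 6 libraries, so the log2 fold change of -0.23 had an interval of -0.76 to 0.30. Ndufs8, its partner with further clusters, had 48.2, 59.0 and 70.8 CPM in KO and 72.6, 67.8 and 62.8 CPM in WT. KO 1 was again the lowest, and KO 3 stood within the WT range (log2 fold change -0.20 ± 0.13).

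The accessory subunits of complex I surround the core and help to assemble it. Ndufa11 and Ndufa13 had the lowest log2 fold changes of the complex, -0.27 and -0.26. Ndufa11, in the membrane arm, had 31.1, 52.4 and 64.6 CPM in KO and 67.0, 51.5 and 55.3 CPM in WT, with KO 1 far below the other 5 libraries. Ndufb7, of the distal membrane arm, had 20.3, 32.5 and 43.8 CPM in KO and 42.8, 32.3 and 35.0 CPM in WT, again with KO 1 the lowest and KO 3 the highest. Ndufa13, also known as GRIM-19, had 53.6, 66.1 and 84.4 CPM in KO and 91.1, 73.9 and 77.2 CPM in WT. In all 3 genes KO 1 was the lowest library, and their standard errors were 0.24, 0.25 and 0.16, against a median of 0.08 over all members. Ndufb8 had the lowest p in complex I (0.142 unadjusted and 0.709 adjusted in edgeR), with 122, 119 and 129.6 CPM in KO and 141, 129 and 130.5 CPM in WT. KO 3 stood at the level of WT 2 there, so the groups overlapped. Ndufb9, among the most abundant of complex I per length, differed little, with 134, 129 and 128 CPM in KO and 133, 121 and 129.7 CPM in WT.

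Ndufa4 and its paralogue Ndufa4l2, known as a target of hypoxia-inducible factor, stood far apart in level. Per length in the file, Ndufa4 averaged 639 ± 29.3 RPKM in KO and 651 ± 17.5 RPKM in WT, and Ndufa4l2 averaged 2.40 ± 0.534 RPKM in KO and 1.94 ± 0.579 RPKM in WT (SD, n = 3 each). Ndufa4 varied little between mice, at 331, 306 and 306 CPM in KO and 328, 311 and 322 CPM in WT. Ndufa4l2 had 1.85, 2.20 and 2.86 CPM in KO and 1.73, 2.47 and 1.38 CPM in WT, which overlapped. Its log2 fold change of 0.30 was the highest of all members, with an interval of -0.30 to 0.89. It overlaps Shmt2, whose counts equalled 1272% of its own, so its level is uncertain.

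All 4 subunits of complex II, succinate dehydrogenase, had estimates below 0, none past the test. Sdhd, a membrane anchor that helps bind ubiquinone, had 114, 114 and 123 CPM in KO, against 125, 126 and 123 CPM in WT. The lowest WT library and the highest KO library, WT 3 and KO 3, differed by less than 1%, and the interval of its log2 fold change was -0.25 to 0.06 (edgeR, adjusted p = 0.737). Sdhc, the other anchor, had 125, 135 and 133 CPM in KO and 146, 134 and 133 CPM in WT. Sdha, the flavoprotein that also serves the tricarboxylic acid (TCA) cycle, had 686, 650.3 and 655 CPM in KO and 724, 679 and 670.3 CPM in WT. Its highest KO library, the female KO 1, lay above both WT males and below the WT female. Sdhb, the iron-sulfur subunit, had 87.9, 89.2 and 108 CPM in KO and 111, 95.04 and 101 CPM in WT, where KO 3 stood within the WT range. The log2 fold changes were -0.06 for Sdha, -0.11 for Sdhb, -0.08 for Sdhc and -0.10 for Sdhd, with standard errors of 0.06 to 0.10.

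Complex III, which passes electrons from ubiquinol to cytochrome c, had the lowest median of the complexes, with 7 of its 9 members below 0. Cyc1, the cytochrome c1 subunit, had 170.4, 184 and 195 CPM in KO, against 210.3, 192 and 199.6 CPM in WT. KO 3 stood between WT 2 and WT 3, and the log2 fold change was -0.13 ± 0.07 (edgeR, adjusted p = 0.677). Uqcrc1, a core protein, had 192, 221 and 262 CPM in KO and 279, 245 and 251 CPM in WT, a log2 fold change of -0.20 ± 0.11. Uqcrc2, the other core protein, had 355, 309.5 and 318 CPM in KO and 346, 339 and 334 CPM in WT. The 2 core proteins thus differed in which KO library was extreme, since KO 1 was the lowest for Uqcrc1 and the highest for Uqcrc2. Uqcrfs1, the Rieske iron-sulfur protein, had 145, 134 and 131 CPM in KO and 156, 139 and 144 CPM in WT, a log2 fold change of -0.10 ± 0.06.

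The small subunits of complex III were split in the same way. Uqcr11, an accessory subunit, had 24.4, 35.8 and 49.2 CPM in KO and 48.0, 36.7 and 38.9 CPM in WT, and Uqcr10 and Uqcrq also had their lowest value in KO 1. Uqcrh, the hinge protein that contacts cytochrome c1, had 268, 219.7 and 211 CPM in KO and 239, 227 and 228 CPM in WT. Here KO 1 was the highest and KO 3 the lowest library, the reverse of Uqcr11. Uqcrb, which binds ubiquinone, was the one with the highest estimate of the complex, 0.09 ± 0.08, and KO 1 was again its highest library, at 98.6 CPM.

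In complex IV, cytochrome c oxidase, 13 of 15 members had estimates below 0 and 0 passed the test. Cox4i1, the ubiquitous form of the regulatory subunit COX4, had 323, 391 and 445 CPM in KO, against 462, 411 and 431 CPM in WT. Its log2 fold change was -0.18 ± 0.11, with KO 1 the lowest library and KO 3 above WT 2 and WT 3. Cox5a, which binds next to it, had 162, 129.7 and 123 CPM in KO and 151, 132 and 137 CPM in WT, with KO 1 the highest and KO 3 the lowest library. Cox5b, which binds zinc, had 89.8, 86.4 and 86.6 CPM in KO and 97.0, 79.9 and 91.2 CPM in WT. The proteins of Cox4i1 and Cox5a join early in assembly, and their RNAs ranked the 3 KO libraries in opposite order. Cox6c had the lowest p of the complex (0.131 unadjusted and 0.700 adjusted in edgeR), with 158, 163 and 179 CPM in KO and 201, 173 and 177 CPM in WT, and it overlaps Vps13b, which had 57.4% of its counts.

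Subunits of complex IV with tissue isoforms were represented by the ubiquitous form in both groups. Per length in the file, Cox4i1 averaged 249 ± 39.4 RPKM in KO and 281 ± 16.7 RPKM in WT, and Cox4i2, the form known from lung and oxygen sensing, averaged 3.08 ± 0.531 RPKM in KO and 3.56 ± 0.436 RPKM in WT (SD, n = 3 each). Cox7a2 averaged 244 ± 19.8 RPKM in KO and 248 ± 18.5 RPKM in WT, and Cox7a1, the heart and muscle form, 13.7 ± 1.07 RPKM in KO and 15.1 ± 1.86 RPKM in WT. For the supercomplex factor Cox7a2l the values were 90.3 ± 5.24 RPKM in KO and 96.1 ± 2.68 RPKM in WT. The same order held in each remaining pair. Cox6b1 averaged 395 ± 11.1 RPKM in KO and 417 ± 34.8 RPKM in WT, and Cox6b2, known from testis, 4.77 ± 1.54 RPKM in KO and 5.10 ± 0.583 RPKM in WT. Cox8a averaged 282 ± 6.77 RPKM in KO and 279.5 ± 22.2 RPKM in WT, and Cox8b, the muscle form, 2.18 ± 0.283 RPKM in KO and 1.87 ± 0.831 RPKM in WT. Cox6a1 averaged 146 ± 10.6 RPKM in KO and 151 ± 10.1 RPKM in WT, and its muscle form Cox6a2 missed the count minimum. No isoform pair had a member past the test, so no change of isoform was detected. The minor forms have wide intervals, such as -0.65 to 0.23 for Cox4i2 and -0.46 to 0.98 for Cox8b on the log2 scale.

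Complex V makes ATP in its F1 head, and both subunits of the catalytic ring were lower in all KO libraries without passing the test. Such an order was found in 3 of the 82 members and in 6.35% of all genes tested. Atp5b, the catalytic beta subunit, had 1712, 1653 and 1624 CPM in KO, against 1867, 1740.0 and 1784 CPM in WT. Its log2 fold change was -0.11 ± 0.06 (edgeR, adjusted p = 0.677), which is 92.6% of the WT level with an interval of 83.8 to 102%. Atp5a1, the alpha subunit, had 1108, 1149.7 and 1232 CPM in KO, against 1340.5, 1287 and 1235 CPM in WT. The highest KO and the lowest WT library of Atp5a1, KO 3 and WT 3, differed by less than 1%, and its log2 fold change was -0.15 ± 0.07, or 90.3% of the WT level (80.5 to 101%). Atp5c1, the gamma subunit of the rotating stalk, had 297, 257 and 263 CPM in KO and 286, 283 and 274 CPM in WT, where KO 1 was the highest library. Atp5d, the delta subunit, had 67.2, 93.2 and 108 CPM in KO and 114, 91.8 and 94.7 CPM in WT, where KO 1 was the lowest. Atp5e, the epsilon subunit, had 66.7, 66.1 and 78.3 CPM in KO and 79.1, 65.4 and 68.9 CPM in WT, with overlapping groups. The subunits of this stalk therefore differed among each other in the order of the KO mice.

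Atp5o, the oligomycin sensitivity protein that ties the head to the peripheral stalk, had 197, 193 and 215 CPM in KO and 230.4, 204 and 211 CPM in WT. It overlaps Itsn1, whose counts equalled 105% of its own, so its level is uncertain. Among the other subunits of the peripheral stalk, Atp5h and Atp5f1 had log2 fold changes of -0.01 and -0.01. Atp5j, with 0.07 ± 0.06, had the highest estimate of the complex. Atp5j overlaps Gabpa, which had 24.0% of its counts, and Atp5f1 overlaps Wdr77, which had 32.8%, so both levels are uncertain. The c subunit of the membrane ring is encoded by 3 genes that give the same mature protein. Atp5g1 had 99.0, 117 and 127 CPM in KO and 145, 118 and 127 CPM in WT, a log2 fold change of -0.19 ± 0.11. Atp5g2 had 19.8, 30.0 and 36.4 CPM in KO and 35.8, 31.5 and 27.7 CPM in WT, and KO 1 was the lowest library in both of these genes. Atp5g3 had 326, 284 and 281 CPM in KO and 309, 272 and 297 CPM in WT, a log2 fold change of 0.02 ± 0.06, with KO 1 the highest library. Atp5l, another membrane subunit, shares its sequence with Gm10221, a copy with 32.7% of its counts, so its value of 40.2, 46.5 and 57.4 CPM in KO and 56.5, 50.6 and 51.1 CPM in WT is uncertain.

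**Figure D3:**
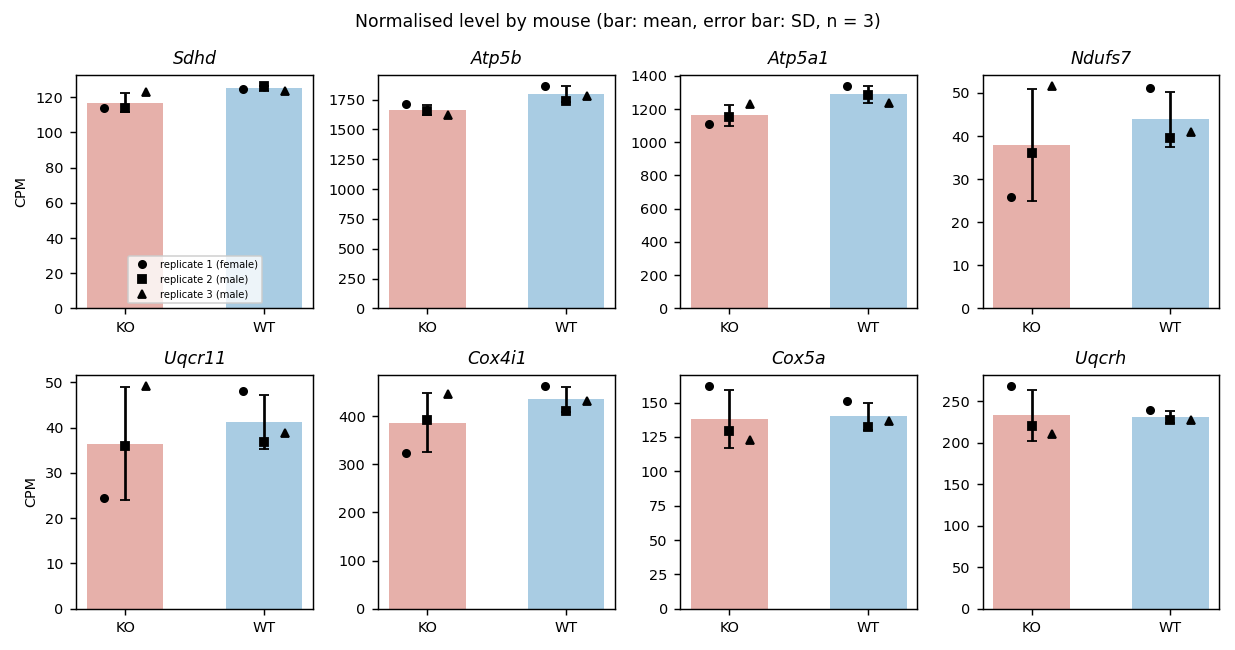
Normalised level (CPM, linear axis from 0) of 8 members in each mouse, KO left and WT right, with bars for the mean and error bars for the SD (n = 3 each). Replicate 1 of each genotype is the female. KO replicate 1 is the lowest for Ndufs7, Uqcr11 and Cox4i1 and the highest for Cox5a and Uqcrh.

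Over all members together, the difference between genotypes was smaller than the spread between libraries. Relative to the mean of the 3 WT libraries, the median log2 CPM of the members was -0.06, -0.11 and -0.01 in KO 1, KO 2 and KO 3, against 0.09, -0.08 and -0.03 in WT 1, WT 2 and WT 3. These medians averaged -0.06 in KO and 0.00 in WT, with a pooled SD within genotypes of 0.07. The groups overlapped, and the library whose median lay farthest from the rest was WT 1, the WT female. The single members were most scattered in KO 1, where their deviations had an SD of 0.28, against 0.12 in WT 1. WT 1 was the highest library in 48 members (58.5%), against 21.0% of all genes tested. KO 1 was the lowest in 33 members (40.2%, against 28.5% of all genes) and the highest in 19, and KO 2 was the lowest in 21 (25.6%, against 12.53%). In complex III the library medians were -0.23, -0.13 and -0.04 in KO and 0.09, -0.07 and -0.02 in WT. In complex II they were -0.14, -0.11 and -0.04 in KO and 0.08, -0.03 and -0.03 in WT, the one complex whose KO medians all lay below its WT medians, by a gap of under 0.01. In complex I they were -0.01, -0.11 and 0.02 in KO and 0.09, -0.08 and -0.03 in WT, and in complex IV -0.16, -0.10 and 0.00 in KO and 0.11, -0.08 and -0.01 in WT. In complex V they were -0.09, -0.11 and -0.03 in KO and 0.10, -0.06 and -0.03 in WT, and KO 3 lay above WT 2 and WT 3 there. In complexes II, III and V the means of these medians differed by more than the pooled SD within genotypes. They were -0.095 in KO and 0.005 in WT (SD 0.058) in complex II and -0.136 and -0.002 (SD 0.091) in complex III. Those of complex V were -0.075 and 0.002 (SD 0.067). The difference did not exceed the SD in complex IV (-0.084 and 0.005, SD 0.090) or complex I (-0.034 and -0.003, SD 0.079). Without WT 1 the median log2 fold change of all members was -0.01, and without KO 1 it was -0.02, and the median of complex I alone was then 0.01 and 0.00. The median of all members was -0.10 without WT 2 and -0.08 without KO 3. In the fit without KO 3, 16 of the 82 members had an unadjusted p under 0.05 in edgeR, against 14.4% of all genes. The adjustment left 0 members there and 0.906% of all genes (lowest adjusted p of a member in edgeR 0.144, for Ndufa13).

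**Figure D4:**
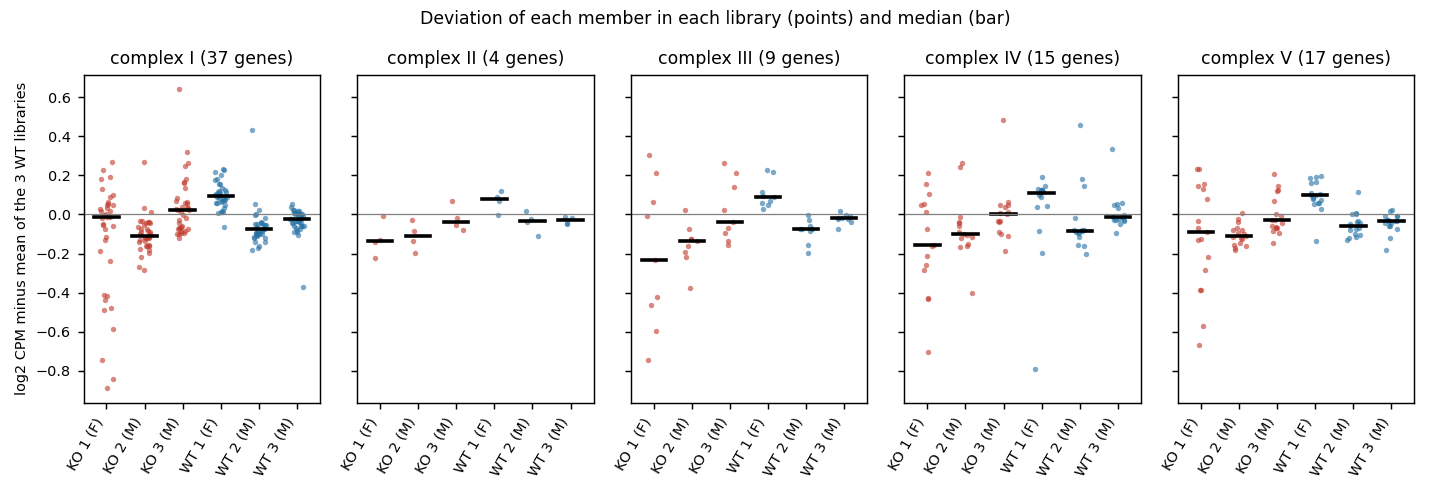
Deviation of each member from the mean of the 3 WT libraries (log2 CPM, vertical axis) in each library, by complex, with a bar at the median. KO libraries are on the left in red and WT libraries on the right in blue, with F for the female and M for males. The KO 1 points are the most scattered, and the WT 1 medians are the highest in all 5 panels.

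The differences between members in KO 1 went in part with their base composition. Across the 82 members, the correlation of the deviation from the mean of 6 libraries with the GC content of the main transcript was -0.61 in KO 1, 0.15 in KO 2 and 0.61 in KO 3, against 0.17, 0.25 and -0.02 in WT 1, WT 2 and WT 3. Members share each library, so these values are a description. All genes tested had the same direction in KO 1 and KO 3, with -0.50 and 0.29. The 27 members with the highest GC content (54.8 to 60.4%), among them Ndufa13, Ndufs7, Uqcr11, Ndufa11 and Cox4i1, had a median deviation from the WT mean of -0.42 in KO 1 and 0.07 in KO 3. The 28 with the lowest GC content (40.2 to 49.1%), among them Uqcrb and Cox5a, had 0.02 in KO 1 and -0.07 in KO 3. Some members went the other way in KO 1. Atp5g1 (46.8% GC) and Cox6c (47.2% GC) deviated by -0.39 and -0.21 there, and Atp5j (56.0% GC) and Ndufb9 (55.4% GC) by 0.23 and 0.06. Of these, Cox6c and Atp5j overlap other genes, as given above. All genes tested with the same high and low GC content had -0.29 and 0.14 in KO 1. With the trends of each library on GC content and length removed, the correlation was -0.04 in KO 1 and 0.21 in KO 3. The library medians of the members were then -0.06, -0.08 and -0.04 in KO, against 0.08, -0.05 and -0.03 in WT. The median log2 fold change was -0.07 with and without this correction, 0 members passed the test after it (234 genes in all, 1.38%), and 10 members changed sign.

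**Figure D5:**
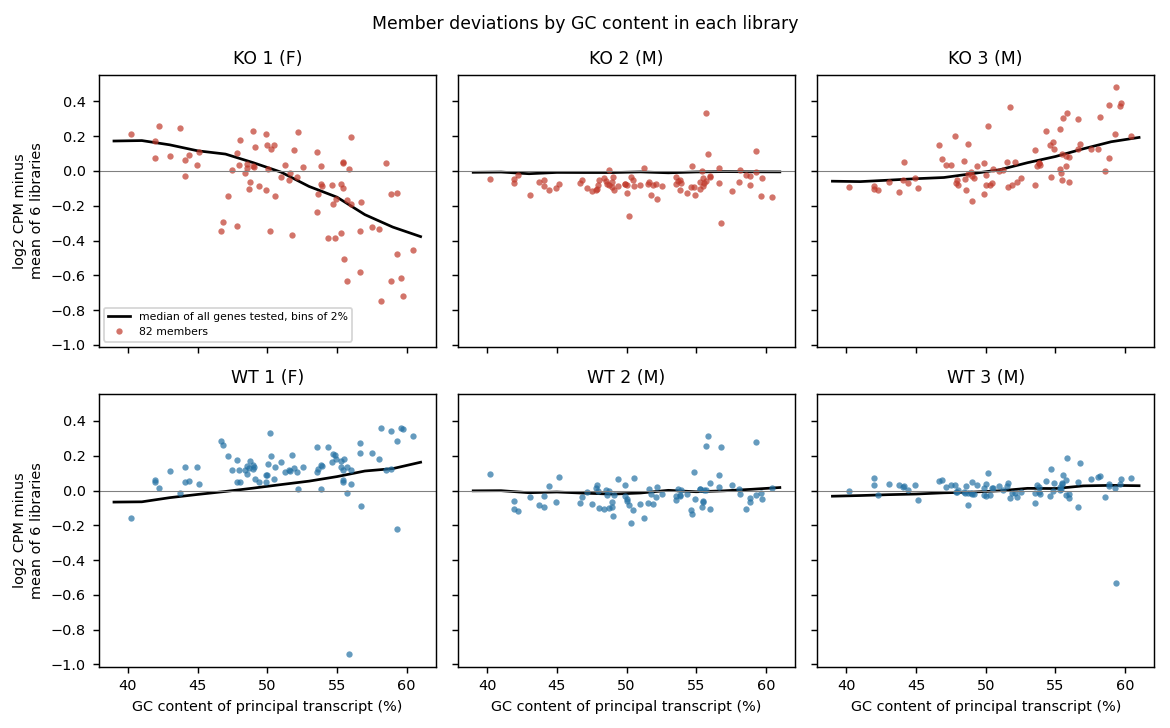
Deviation of the 82 members from the mean of 6 libraries (log2 CPM, vertical axis) against the GC content of the main transcript (%, horizontal axis), 1 panel per library, KO above in red and WT below in blue. The black line is the median of all genes tested in bins of 2% GC. Members follow the line down in KO 1 and up in KO 3, and lie mostly above it in WT 1.

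The female pair and the males gave different medians. KO 1 minus WT 1, the 2 females, had a median log2 difference of -0.14 over the members, and the 2 male KO mice minus the 2 male WT mice had -0.01, where all genes tested had 0.00 and 0.01. In the females 60 of the 82 members lay below 0 and in the males 47. Of all 16934 genes tested, 8489 lay below 0 in the females and 7840 in the males. A genotype by sex term, added after the data were seen, passed an adjusted p under 0.05 in edgeR for 0 members and 0% of all genes. At an unadjusted p under 0.05 it called 28 of the 82 members, against 18.8% of all genes tested. With 1 female per genotype, sex cannot be told apart from the single libraries KO 1 and WT 1.

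Levels per length ordered the members by abundance. Ndufa4 was the highest by the gene length of the file, at 645 RPKM over the 6 libraries. Atp5b (408 RPKM), Cox6b1 (406 RPKM), Atp5a1 (391 RPKM), Cox8a (281 RPKM) and Cox4i1 (265 RPKM) came next. Atp5b and Cox6b1 did not differ beyond their spread, with 393 ± 10.5 and 395 ± 11.1 RPKM in KO and 424 ± 15.2 and 417 ± 34.8 RPKM in WT (SD, n = 3 each). How the length in the file was derived is not stated. It was shorter than the main transcript for Ndufa4 (492 against 610 bases) and Cox6b1 (505 against 618 bases). For Atp5b it was longer (4237 against 1916 bases). With the length of the main transcript (GENCODE M21) the order was Atp5b at 903 RPKM, Cox4i1 at 537, Ndufa4 at 520.4 and Atp5a1 at 496. The order therefore depends on the length used. The median over the members was 69.0 RPKM by the length of the file, against 5.74 RPKM for all genes tested, and the lowest member was Cox8b at 2.03 RPKM.

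Other genes of the pathway also stayed below the threshold. Of 46 assembly factors of the 5 complexes, 0 passed the test and the median log2 fold change was -0.04. The 2 most abundant, Uqcc1, which helps to build complex III, and Coa5, a factor of complex IV, had 99.7 ± 3.78 and 109 ± 3.87 CPM in KO and 105 ± 4.70 and 109.9 ± 2.90 CPM in WT (SD, n = 3 each). Of 17 electron carriers and subunits outside the name rule, 0 passed and the median was -0.04. Cytochrome c, encoded by Cycs, averaged 89.0 ± 12.3 CPM in KO and 96.2 ± 6.96 CPM in WT. Of 18 regulators of mitochondrial genes, 0 passed, 13 lay above 0 and 5 below, with a median of 0.06. Esrra had the lowest estimate, -0.37 ± 0.22 SE (edgeR, adjusted p = 0.705). It averaged 30.7 ± 9.88 CPM in KO and 39.0 ± 5.98 CPM in WT, with overlapping groups. Ppargc1a, the coactivator PGC-1alpha, averaged 77.6 ± 4.12 CPM in KO and 77.3 ± 3.31 CPM in WT, and Nrf1 itself 26.4 ± 0.788 CPM in KO and 25.3 ± 0.991 CPM in WT. Of 17 TCA cycle genes, 0 passed and 15 lay below 0, with a median of -0.05. Ogdh, of the oxoglutarate dehydrogenase complex, averaged 402 ± 45.2 CPM in KO and 454 ± 37.1 CPM in WT. The 77 mitochondrial and the 77 cytosolic ribosomal protein genes, given as a comparison of short transcripts, had medians of -0.03 each and 0 past the test. Their median levels were 28.2 and 104 CPM, against 91.7 CPM for the members, so only the cytosolic set was as abundant.

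Cell type markers differed between the groups beside these values. All 6 Purkinje cell markers lay below 0 and 4 fell past the test, Itpr1, Car8, Rgs8 and Ppp1r17, with a median log2 fold change of -0.63. Their summed level was 5535 to 6455 CPM in KO and 8769 to 9542 CPM in WT. All 6 gene models of microglia markers lay above 0 and 3 rose past the test, Lyz2, Clec7a and Cd68, with a summed level of 142 to 169 CPM in KO and 85.5 to 99.4 CPM in WT. Of the 4 markers of astrocytes and Bergmann glia, 2 lay above and 2 below 0. Gfap, the filament of reactive astrocytes, was the 1 past the test, with 358 ± 23.4 CPM in KO and 195 ± 43.5 CPM in WT (SD, n = 3 each). Slc1a3, a glutamate transporter of these glia, averaged 1482 ± 139.98 CPM in KO and 1747 ± 15.4 CPM in WT (log2 fold change -0.24, adjusted p = 0.410 in edgeR). Choroid plexus markers, which mark tissue next to the cerebellum, summed to 1567 to 4938 CPM in KO and to 63.4, 4589 and 3029 CPM in WT 1, WT 2 and WT 3. WT 1, the highest library for most members, had the lowest of these sums. None of these markers was at 0 counts in any library, and their part in the values of the respiratory chain members was not tested.

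Reads shared with other genes bear on part of the members. Of the 82 members, 29 overlap another gene of the table and 15 overlap one with more than 10% of their counts. Besides members flagged above, these include Cox4i1 with Emc8 (24.0% of its counts), Atp5d with Dos (42.9%) and Ndufb8 with Gm20538 (28.2%). A further copy of at least 95% identity was found in the table for 11 members, with more than 1% of their counts for 6. Without members above these 10% and 1% limits, 63 were left, and their median log2 fold change was -0.07.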

How the data were processed

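RNA-seq of cerebellum from 6 mice was used. The authors deposited raw read counts per gene and library, with coordinates, a length, symbol and biotype of 43346 genes, per the file headers. STAR and the build mm10 are named in the submitters' processing notes. The sources used here name neither the counting tool nor its strand setting or annotation. Depth was 25245778 to 31135185 counts per library. Counting error limits the low members, and the spread between mice (biological coefficient of variation 11.2%) limits the abundant ones.

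Counts were tested in R 4.3.3 with edgeR 4.0.16 (filterByExpr with a minimum count of 10, TMM, two-sided quasi-likelihood F test) on genotype with sex as a covariate. Benjamini-Hochberg adjustment ran over 16934 genes with a threshold of 0.05. SE values were derived from the fold change and its F value. Log2 CPM used a prior count of 2. RPKM is TMM-scaled CPM per kilobase. GC content, from principal transcripts of GENCODE M21, was known for all 82 members and 99.0% of genes tested. The fit was tested on counts simulated from the mean of each gene with known differences added. The simulation held no effect of sex and no library trends on GC content, so it does not test the fit against these. Alternatives were RLE size factors, other filters, DESeq2 1.42.0, limma-voom (limma 3.58.1), no sex term, males only, loess offsets on length and GC content (span 0.5), leaving out each library, and a threshold of 0.10. Members without shared reads, the genotype by sex term and the promoters of genes tested as a background were added after the data were seen.

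The members and all lists were chosen with earlier results of these data known. Named by rule were, in each complex, the 3 members with the lowest p and the 2 with the highest RPKM, core subunits and isoform groups, and from each further list up to 4 genes past the test and the 2 most abundant. Ndufa11, Ndufa13, Ndufb7, Uqcr11, Uqcrb, Atp5f1, Atp5h, Atp5j, Atp5l, Nrf1, Esrra and the members named for their promoters alone were added after their values were seen. Some genes that this rule names are not reported here, and 1 member is not drawn by name.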

Additional observations from a re-analysis of the deposited data

How the results depend on the processing

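The members past the test numbered 0 under each of the 15 alternative fits and at an adjusted p under 0.10, and their median log2 fold change was below 0 in all 15, from -0.10 without WT replicate 2 to -0.01 without WT replicate 1. No paired analysis was possible because the labels give no replicate numbers that pair mice. KO 1, KO 2 and WT 1 share a code in their titles whose meaning is not given, so no term for it was fitted. The 48 genes called in all (23 higher and 25 lower) became 75 (44 lower) with RLE size factors and 76 (45 lower) with a mean of at least 1 CPM. They became 199 (78 higher and 121 lower) with no filter, 225 (84 and 141) in DESeq2, 234 (85 and 149) once trends on length and GC content were removed, 111 (40 and 71) in males only and 109 (41 and 68) at an adjusted p under 0.10. With each library left out in turn, 1 to 156 genes were called (0 to 67 higher and 1 to 89 lower). In males only the median of complex V was -0.019. With each library left out, the median ran from -0.107 to -0.023 in complex II, from -0.174 to -0.036 in complex III, from -0.113 to -0.014 in complex IV and from -0.124 to -0.011 in complex V. In complex I it ran from -0.079 without WT replicate 2 to 0.008 without WT replicate 1, and it was -0.019 without KO replicate 2 and 0.00 without KO replicate 1 and in males only. Of 629 values of the 42 members taken by the naming rule under alternatives, 50 changed sign, and none of these was past the test in any fit. Without KO replicate 1 or in males only, 32 of 82 members changed sign, and without WT replicate 1, 34 did. The causes were not tested.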
